A study of Drosophila melanogaster with 12 samples.

Results

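The comparison described here sets cultured Drosophila melanogaster larval organs treated with the steroid hormone 20-hydroxyecdysone (20E) against organs cultured in the same medium without hormone. It took in every array of these 2 groups, 3 treated with 20E and 3 labelled as non-treated control, which is 6 of the 12 arrays of the series. The other 6 carried the protein synthesis inhibitor cycloheximide, alone or together with 20E, and enter below only as another setting in which the effect of 20E was measured. All 13966 probe sets of the Affymetrix array were compared, with no probe set chosen for its values.

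Both groups came from w1118 animals, the strain the study's methods give for its arrays, collected as wandering larvae of the last instar with partly cleared blue guts, about 8 h before pupariation. The organs of 8 dissected animals were held in each well in oxygenated Schneider's Drosophila medium, preincubated for 1 h, and then kept for 6 h at 25 °C in fresh medium alone (no hormone) or in medium with 5 µM 20E. The 3 cultures of a treatment were separate experiments with an array each, so the spread between arrays is that between separate harvests. Because a well held the mixed organs of several animals, fewer cells of a type and less RNA per cell cannot be told apart in any value given here.

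20E is the active molting hormone of insects. It binds a heterodimer of the nuclear receptors EcR and Ultraspiracle (USP), which activates a small set of early genes directly. Many early genes encode transcription factors that in turn control late, tissue-specific genes, and at the end of larval life this cascade drives salivary gland and gut histolysis, the outgrowth of imaginal discs and the tanning of the puparium.

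The 6 arrays were closely alike in overall brightness, with median intensities from 114 to 118, and the log2 values of 2 arrays of 1 group correlated across probe sets at 0.987 to 0.990. The source label reads whole animal while the protocol describes dissected organs, and transcripts of many tissues were bright. The summed intensity of 12 salivary gland glue genes was 35924 to 48420 without hormone and 40920 to 45680 with 20E, that of 42 midgut digestive enzymes 118522 to 153685 and 123317 to 153240, and that of 18 larval cuticle and epidermis genes 23991 to 28273 and 20437 to 25595. None of 10 marker lists (glue, fat body, midgut, muscle, nervous system, testis, blood cells, discs, Malpighian tubule and cuticle) had a member called with limma or with SAM (a permutation test on the same values), and 9 and 10 of their 159 entries had an unadjusted p under 0.05 upward and downward. Among 18 testis genes 15 had a positive log2 fold change, and their summed intensity was 6155, 4619 and 4298 without hormone and 5355, 7443 and 6180 with 20E. The overlapping testis sums were highest on array 1 without hormone and array 2 with 20E, and the part of this shift in the results below was not tested. No defining marker was at 0, although Syt1, a synaptic vesicle protein, lay between 11.4 and 14.7 on all 6 arrays.

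20E raised far more transcripts than it lowered. A probe set was called where its limma p-value, adjusted over all probe sets, was under 0.10 and the groups differed at least 1.3-fold. On this rule 246 probe sets were higher with 20E, 1.76% of those tested, and 55 were lower, 0.394%, together 2.16%. The higher ones stood for 234 named genes and the lower ones for 54. The fold change is a ratio of geometric means of the dChip intensity, a linear probe set value, after values under 10 were set to 10. The change reached 2-fold for 45 of the higher and 10 of the lower probe sets, and the median log2 fold change over all probe sets was -0.01. Groups that do not overlap were much more common than calls: all 3 arrays with 20E lay above all 3 without in 10.6% of probe sets, and below them in 10.1%. At an unadjusted p under 0.05 there were 1241 probe sets up and 846 down. Counts of called list members below are to be read beside 1.76% higher and 0.394% lower over all probe sets. None of those counts was tested.

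The replicates were not equal in how they carried these calls. Array 2 with 20E was the highest of its group in 203 of the 246 probe sets called higher and in 40.8% of all probe sets, and array 1 without hormone was the highest of its group in 148 of the 246 and in 33.9% of all. Leaving out array 2 without hormone left 88 higher and 17 lower calls, and leaving out array 2 with 20E left 98 and 33, while the counts without array 1 of either group were 276 and 68 (no hormone) and 304 and 52 (20E). Without array 3 they were 153 and 59 (no hormone) and 199 and 33 (20E). Of the 301 called probe sets 90 kept their call without each of the 6 arrays in turn, and for every other gene named below as raised or lowered the arrays that ended its call are given. The alternatives named below besides such omissions were a fit of the 6 arrays alone (in place of all 12), a floor of 50 in place of 10, the log2 of the intensity plus 16 in place of a floor, quantile normalization and median centring. A call also ended where the fold came under 1.3. Where several genes share a sentence on lost calls, its ranges of adjusted p are pooled over these genes. Arrays are numbered by their replicate. Genes with several probe sets are given by their brightest one, and a dimmer probe set of Hr4, ImpE3, Stat92E, Men, bchs, cindr, raw, rhea, Tnpo and Cht10 was not called.

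The receptors of the cascade split into those that changed and those, EcR and USP included, for which no change was called. Of 21 nuclear receptor genes measured 5 rose, against 1.76% of all probe sets, and 1 fell, with a median log2 fold change of -0.02 over the list. EcR gave intensities of 279, 329 and 296 without hormone and 296, 259.8 and 259.8 with 20E (log2 fold change -0.15, limma adjusted p = 0.491). Its partner usp gave 94.8, 111 and 96.5 without hormone and 93.5, 105 and 102 with 20E (-0.01, limma adjusted p = 0.993). For both, the values of the groups overlapped. Eip78C, an early puff gene for an orphan receptor, was at 42.4, 50.3 and 43.2 without hormone and 132, 224 and 127 with 20E (log2 fold change 1.78, standard error 0.20, limma adjusted p = 0.00169). Its lowest 20E array was more than 2-fold above its highest array without hormone, and array 2 with 20E stood well above the other two.

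Hr39, an orphan receptor active at the onset of metamorphosis, was at 51.3, 50.6 and 52.7 without hormone and 73.2, 98.9 and 90.2 with 20E (log2 fold change 0.75, standard error 0.12, limma adjusted p = 0.0111). Hr4, which feeds into the control of early and midprepupal genes, was at 110.0, 130.0 and 129.7 without hormone and 185, 202 and 182 with 20E (log2 fold change 0.62, standard error 0.08, limma adjusted p = 0.00358). Both rose without overlap and kept their calls whichever array was omitted. Eip75B encodes the heme-binding receptor E75, an early gene product that can hold DHR3 in check. It was the brightest of the 5 receptors called higher, at 456, 446 and 548 without hormone and 725, 749 and 682 with 20E (log2 fold change 0.58, standard error 0.11, limma adjusted p = 0.0272). Hr78 was at 91.4, 79.1 and 81.7 without hormone and 123, 134 and 113 with 20E (log2 fold change 0.56, standard error 0.12, limma adjusted p = 0.0522). Eip75B lost its call when array 2 without hormone or array 2 with 20E was left out (limma adjusted p from 0.122 to 0.147, and from 0.0152 to 0.147 over all alternatives). Hr78 lost its call when array 2 or 3 without hormone or array 1 or 2 with 20E was left out (limma adjusted p from 0.102 to 0.214, and from 0.0234 to 0.214 over all alternatives), and also with a floor of 50.

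The competence factor gene ftz-f1, which is silenced by high 20E and switched on when the hormone declines, was the only receptor gene called lower. Its intensities were 36.0, 38.0 and 29.1 without hormone and 23.7, 20.1 and 19.7 with 20E (log2 fold change -0.70, standard error 0.11, limma adjusted p = 0.0111), low on every array but without overlap, and a floor of 50 removed the difference. For Hr3, whose protein represses early genes and activates ftz-f1, the brighter of 2 probe sets was not called, at 87.7, 98.2 and 94.3 without hormone and 91.7, 85.02 and 96.8 with 20E. The dimmer one was higher with 20E, at 32.5, 32.8 and 33.1 without hormone and 44.0, 65.9 and 45.0 with 20E (log2 fold change 0.63, standard error 0.16, limma adjusted p = 0.0935). Hr3 lost its call when array 1, 2 or 3 without hormone or array 2 or 3 with 20E was left out (limma adjusted p from 0.116 to 0.290, and from 0.0642 to 0.788 over all alternatives), and also with a fit of the 6 arrays alone and a floor of 50. Of the remaining receptor genes tll and svp lay below their controls on all 3 arrays without being called (-0.20 and -0.11), and Hnf4, ERR, Hr38, Hr51, Hr83, Hr96, knrl, kni, eg and dsf had log2 fold changes between -0.26 and 0.09.

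Most early regulators without a receptor domain were raised. Of 15 measured 10 rose and none fell, all 15 log2 fold changes were positive, and their median was 0.62 against -0.01 over all probe sets. In 13 of the 15 every 20E array lay above every array without hormone, against 10.6% of all probe sets. These counts describe the list and test nothing, since the study picked 7 of the 15 (Sox14, cbt, CG11275, Blimp-1, vri, hry and brat) from the genes most induced in these cultures. Of those 7, 5 were called and all 7 lay above the controls, and of the other 8, 5 were called and 6 lay above the controls. The other 8 were also listed with earlier results of these data known. Eip74EF and Kr-h1 among them are in the study's list of genes induced in these cultures, so their counts test nothing either. Eip74EF, which encodes the ETS-domain factor E74, had the largest increase of any probe set, from 47.5, 33.1 and 28.0 without hormone to 296, 538 and 364 with 20E (log2 fold change 3.45, standard error 0.24, limma adjusted p = 3.63e-05). That is a 10.95-fold change from a level near the dim end of the array to one well above its median. The Broad-Complex gene br, for a family of BTB zinc finger proteins, was at 184, 111 and 160.0 without hormone and 318, 464 and 362 with 20E on its brightest probe set (log2 fold change 1.34, standard error 0.20, limma adjusted p = 0.00793), and 2 of its 3 probe sets were called.

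3 of these regulators rose about 2-fold. cabut (cbt), a zinc finger repressor of the Krüppel-like family, was at 227, 241 and 206 without hormone and 519.7, 569 and 491 with 20E (log2 fold change 1.23, standard error 0.10, limma adjusted p = 0.000110). Sox14, an HMG-box factor needed later for the pruning of neurons and for cell death, was at 259.5, 221 and 248 without hormone and 551, 606 and 513 with 20E (log2 fold change 1.197, standard error 0.09, limma adjusted p = 3.85e-05). brat, a translational repressor, was at 228, 222 and 236 without hormone and 449, 588 and 366 with 20E (log2 fold change 1.01, standard error 0.14, limma adjusted p = 0.00449). Scatter was small for cbt and Sox14 and wider for the treated arrays of brat. For each of the 3 the lowest treated array lay well above the highest control array, and no single array ended the call. slbo, the fly C/EBP factor of migrating cells, was at 244, 247 and 227 without hormone and 356, 379 and 337 with 20E (log2 fold change 0.58, standard error 0.07, limma adjusted p = 0.00182), a smaller change with narrower groups.

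Kr-h1, a zinc finger factor better known from juvenile hormone signalling, was at 42.0, 32.7 and 30.5 without hormone and 69.6, 71.5 and 55.2 with 20E (log2 fold change 0.90, standard error 0.18, limma adjusted p = 0.0302). vrille (vri), a bZIP repressor of the circadian clock, was at 204, 198 and 222 without hormone and 337, 377 and 308 with 20E (log2 fold change 0.71, standard error 0.15, limma adjusted p = 0.0420). CG11275 was at 139, 129 and 121 without hormone and 215, 211 and 173 with 20E (log2 fold change 0.62, standard error 0.12, limma adjusted p = 0.0272). These 3 changed by less than 2-fold and did not overlap, nor did emc, which blocks helix-loop-helix factors (log2 fold change 0.55, standard error 0.12, limma adjusted p = 0.0502). Kr-h1 lost its call when array 2 or 3 without hormone or array 2 with 20E was left out (limma adjusted p from 0.111 to 0.151, and from 0.00421 to 0.390 over all alternatives), and also with a floor of 50. vri and CG11275 lost their calls when array 2 without hormone or array 2 with 20E was left out (limma adjusted p from 0.120 to 0.185, and from 0.00104 to 0.185 over all alternatives), and also with a floor of 50 (vri). emc lost its call when array 2 or 3 without hormone or array 2 or 3 with 20E was left out (limma adjusted p from 0.131 to 0.215, and from 0.0302 to 0.215 over all alternatives), and also with a fit of the 6 arrays alone and a floor of 50. Without array 2 of either group 6 of the 15 were called. Hairy (hry) was at 574, 525 and 633 without hormone and 729, 774 and 735 with 20E (limma adjusted p = 0.172). The prepupal timing repressor Blimp-1 was at 174, 177 and 167 without hormone and 196, 251 and 205 with 20E (limma adjusted p = 0.229). Neither was called, although the treated arrays lay above the controls in both. Eip93F, an early gene of the later prepupal pulse, had a log2 fold change of 0.05.

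**Figure D1:**
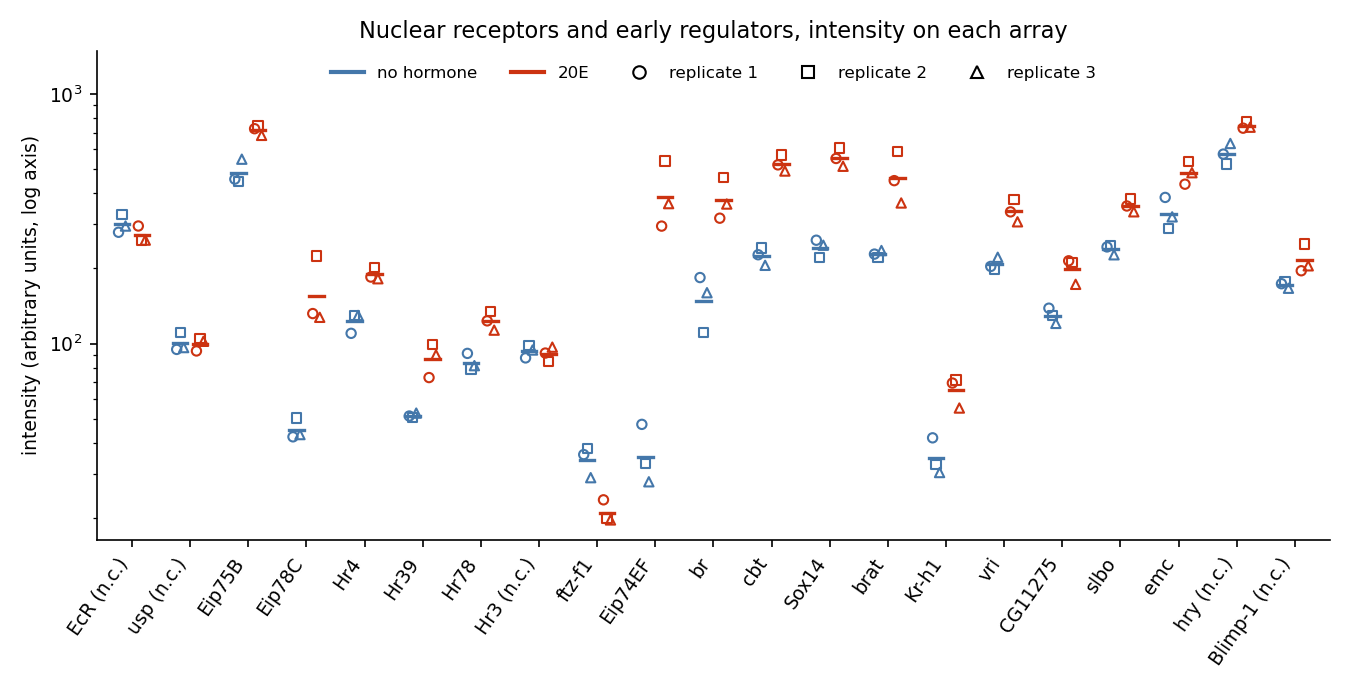
Intensity (log axis) of 9 nuclear receptor genes and 12 early regulators on each of the 3 arrays without hormone (blue) and the 3 with 20E (red), with symbols for the replicates, a bar at the geometric mean, and n.c. for genes not called. EcR and usp overlap between the groups, ftz-f1 lies lower with 20E, and Eip74EF rises from 28.0 to 47.5 up to 296 to 538.

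Among 17 other genes named for ecdysone induction 4 rose and none fell, against 1.76% and 0.394% of all probe sets. Their median log2 fold change was 0.04. Ldh (ImpL3), which encodes lactate dehydrogenase, was at 269, 228 and 266 without hormone and 617, 679 and 707 with 20E (log2 fold change 1.39, standard error 0.10, limma adjusted p = 3.63e-05). The treated arrays exceeded the controls by more than 2-fold with hardly any scatter, and the remaining 13 of 14 measured glycolytic genes were not called, Pfk at -0.22 and Gapdh2 at -0.18 among them. Cyp18a1, the P450 that inactivates 20E by 26-hydroxylation, was at 37.1, 38.5 and 39.1 without hormone and 121, 92.7 and 124 with 20E (log2 fold change 1.54, standard error 0.19, limma adjusted p = 0.00238). It was the only one of 13 measured genes of ecdysteroid synthesis and breakdown to be called, and the synthetic enzymes dib (0.22), sad (-0.04), spo (0.04) and shd (-0.04) were not.

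Of the genes that ecdysone induces in imaginal discs, ImpE2, which is needed for disc elongation, was at 537, 532 and 541 without hormone and 676, 973 and 709 with 20E (log2 fold change 0.53, standard error 0.13, limma adjusted p = 0.0726). ImpE3 was at 149, 126 and 127 without hormone and 172, 228 and 178 with 20E (log2 fold change 0.52, standard error 0.11, limma adjusted p = 0.0450). ImpE2 lost its call when array 1, 2 or 3 without hormone or array 2 with 20E was left out (limma adjusted p from 0.126 to 0.234, and from 0.0381 to 0.234 over all alternatives), and also with a fit of the 6 arrays alone and a floor of 50. ImpE3 lost its call when array 2 or 3 without hormone or array 2 with 20E was left out (limma adjusted p from 0.140 to 0.197, and from 0.0275 to 0.197 over all alternatives), and also with a fit of the 6 arrays alone and a floor of 50. ImpE1, ImpL1 and ImpL2 had log2 fold changes of -0.09, -0.09 and 0.16 and were not called. The targets of the later prepupal response, Edg78E, Edg84A and Edg91, had values of -0.05, -0.02 and 0.04.

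No change was called among the late puff genes of the salivary gland at 6 h. None of 11 L71 genes was called with limma or with SAM, and 1 had an unadjusted p under 0.05 in each direction. Intensities of 9 of the 11 were under 50 in both group means. Eig71Ee, the only bright one, which is itself expressed with the glue genes, was at 3539, 3192 and 2801 without hormone and 4935, 4210.1 and 3916 with 20E, without overlap (log2 fold change 0.45, limma adjusted p = 0.134). Of the glue genes, which 20E shuts off in the animal, none of 12 was called with limma or SAM, 8 had positive values, and their median was 0.05. Fat body protein genes Fbp1 and Fbp2 had values of -0.01 and -0.01.

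A few autophagy and cell death genes were raised. Atg1, the kinase that starts autophagosome formation, was at 256, 221 and 174 without hormone and 545, 609 and 412 with 20E (log2 fold change 1.26, standard error 0.17, limma adjusted p = 0.00420). Atg7, the E1-like activating enzyme of the conjugation steps, was at 81.9, 81.8 and 80.3 without hormone and 126, 187 and 135 with 20E (log2 fold change 0.86, standard error 0.16, limma adjusted p = 0.0255). They were the 2 of 18 measured autophagy genes called, against 1.76% of all probe sets called higher, and the list's median was 0.04. Atg8a, the abundant autophagosome protein, was at 2165, 2219.6 and 1962 without hormone and 2032, 2343 and 2096 with 20E, with wide overlap (log2 fold change 0.03), and Atg6, Atg5, Atg12 and Atg9 had values of -0.01, 0.05, 0.15 and 0.02. 3 genes of this kind outside the list were picked after their values were seen. Atg18b, a phosphoinositide-binding protein of the autophagy family, was at 106, 108 and 97.1 without hormone and 167, 246 and 179 with 20E (log2 fold change 0.91, standard error 0.16, limma adjusted p = 0.0191). BNIP3, a mitophagy receptor, was at 903, 721 and 839 without hormone and 1344, 1456 and 1335 with 20E (log2 fold change 0.75, standard error 0.10, limma adjusted p = 0.00467). Blue cheese (bchs), a BEACH-domain protein linked to the clearing of protein aggregates, had 1 of 2 probe sets called, at 58.8, 51.8 and 54.3 without hormone and 108, 116.1 and 97.2 with 20E (log2 fold change 0.96, standard error 0.12, limma adjusted p = 0.00226). These 3 rose without overlap and kept their calls without any single array. Atg7 lost its call when array 2 without hormone was left out (limma adjusted p = 0.115, and from 0.00787 to 0.115 over all alternatives).

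In the death pathway, 2 of 17 measured genes rose. Dark, the fly Apaf-1, was at 80.7, 67.8 and 66.0 without hormone and 116.4, 159 and 117 with 20E (log2 fold change 0.86, standard error 0.13, limma adjusted p = 0.00954). Dronc, the initiator caspase that Dark activates, was at 188, 177 and 159.9 without hormone and 253, 327 and 247 with 20E (log2 fold change 0.64, standard error 0.13, limma adjusted p = 0.0355). The death inducers upstream of them were not called. reaper (rpr) was at 63.3, 47.7 and 51.2 without hormone and 48.2, 58.4 and 60.6 with 20E, with overlap. hid was at 37.2, 46.4 and 44.8 without hormone and 42.4, 58.0 and 46.6 with 20E, again with overlap. Among other genes of the pathway, log2 fold changes were -0.11 (Dcp-1), 0.49 (Strica) and 0.37 (Diap2). Dronc lost its call when array 2 or 3 without hormone or array 2 with 20E was left out (limma adjusted p from 0.120 to 0.136, and from 0.00946 to 0.136 over all alternatives), and also with a floor of 50. Of 9 measured genes for the engulfment of dead cells, a list made after the values were seen, all 9 had positive values, with a median of 0.31, and the adaptor gene ced-6 (log2 fold change 0.68, standard error 0.14, limma adjusted p = 0.0420) and pretaporter (log2 fold change 0.56, standard error 0.14, limma adjusted p = 0.0807), prtp, a ligand of the receptor Draper, were called. ced-6 lost its call when array 2 or 3 without hormone or array 2 with 20E was left out (limma adjusted p from 0.126 to 0.196, and from 0.0243 to 0.196 over all alternatives), and also with a floor of 50. prtp lost its call when array 2 or 3 without hormone or array 1 or 2 with 20E was left out (limma adjusted p from 0.118 to 0.314, and from 0.0595 to 0.314 over all alternatives), and also with a fit of the 6 arrays alone and a floor of 50.

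Endosomal sorting genes, likewise listed after their values were seen, held 4 members of 18 called higher, with a median of 0.08, against 1.76% of all probe sets. Nothing is read from this share, because the list was made with the values known. Hrs, which gathers ubiquitinated receptors on endosomes, was at 394, 411 and 370.1 without hormone and 621, 834 and 552 with 20E (log2 fold change 0.75, standard error 0.14, limma adjusted p = 0.0240). Its partner Stam was at 164, 155 and 163 without hormone and 303, 333 and 257 with 20E (log2 fold change 0.88, standard error 0.11, limma adjusted p = 0.00222). Both subunits of this first sorting complex were raised without overlap and kept their calls under every omission of an array. Vps60, an accessory of the last complex, and liquid facets (lqf), the fly epsin, had log2 fold changes of 0.66 and 0.72. Further trafficking genes called higher were Syx7 (0.86), Rab32 (0.68), Snx1 (0.41), Bet1 (0.43) and AP-2sigma (0.47), all picked after the values were seen. Vps60, Syx7 and Snx1 lost their calls when array 2 or 3 without hormone or array 2 with 20E was left out (limma adjusted p from 0.101 to 0.206, and from 0.00817 to 0.206 over all alternatives), and also with a floor of 50 (Syx7 and Snx1), a fit of the 6 arrays alone (Snx1) and the log2 of the intensity plus 16 (Snx1). lqf lost its call when array 1, 2 or 3 without hormone or array 2 or 3 with 20E was left out (limma adjusted p from 0.103 to 0.316, and from 0.0515 to 0.316 over all alternatives), and also with a fit of the 6 arrays alone and a floor of 50. Rab32 lost its call when array 2 without hormone or array 2 with 20E was left out (limma adjusted p from 0.125 to 0.149, and from 0.0161 to 0.149 over all alternatives). Bet1 lost its call when array 2 or 3 without hormone or array 2 or 3 with 20E was left out (limma adjusted p from 0.114 to 0.186, and from 0.0240 to 0.186 over all alternatives), and also with a fit of the 6 arrays alone. AP-2sigma lost its call when array 2 or 3 without hormone or array 1, 2 or 3 with 20E was left out (limma adjusted p from 0.105 to 0.355, and from 0.0667 to 0.355 over all alternatives), and also with a fit of the 6 arrays alone and a floor of 50. Lysosomal proteases and vacuolar ATPase subunits gave no call in 35 genes with limma or SAM, 2 and 1 having an unadjusted p under 0.05 upward and downward.

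**Figure D2:**
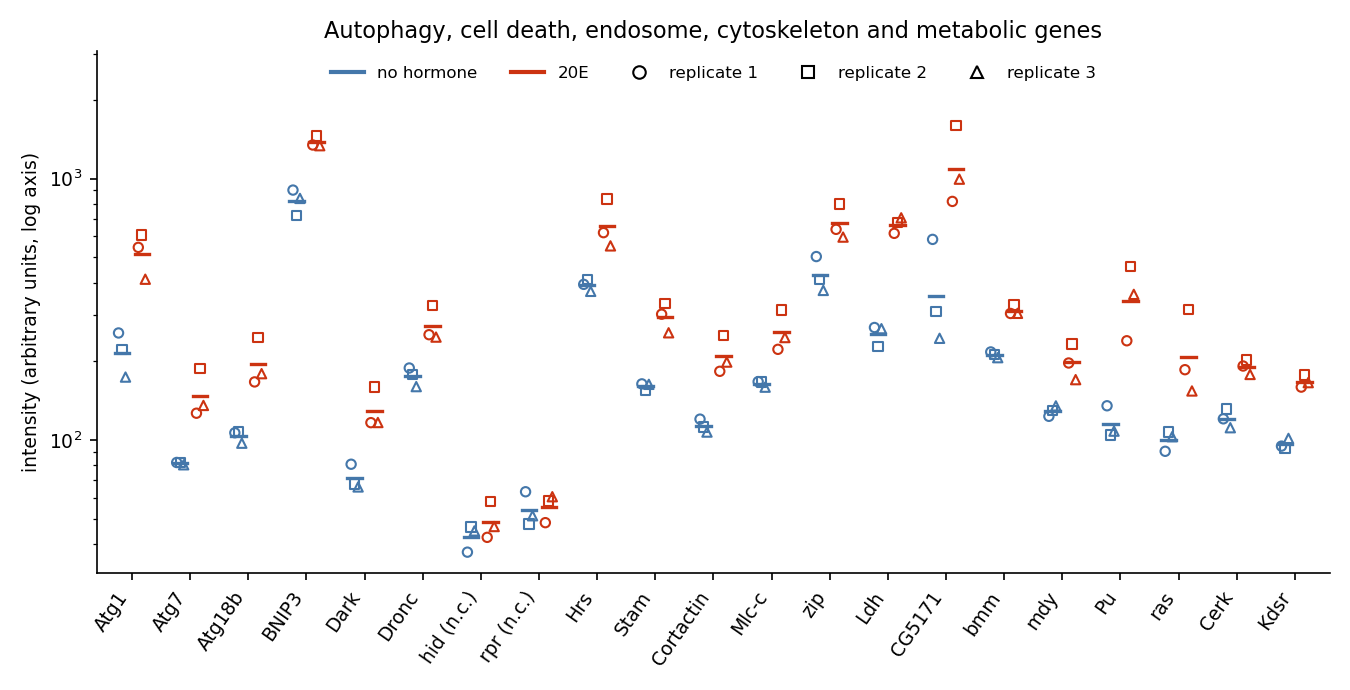
Intensity (log axis) of 21 genes on each of the 3 arrays without hormone (blue) and the 3 with 20E (red), with symbols for the replicates, a bar at the geometric mean, and n.c. for genes not called. hid and rpr overlap between the groups, the remaining 19 genes do not, and array 2 with 20E is the highest of its group in most of them.

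Metabolic genes responded singly, mostly 1 or 2 enzymes to a pathway. In trehalose and glycogen metabolism 1 of 13 measured genes rose, CG5171. It was at 585, 309 and 245 without hormone and 817, 1596 and 994 with 20E (log2 fold change 1.62, standard error 0.32, limma adjusted p = 0.0288), with wide scatter in both groups. In fat metabolism 2 of 16 rose, against 1.76% of all probe sets, with a median of 0.14 for the list. Brummer (bmm), the triglyceride lipase of the fat body, was at 217, 212 and 206 without hormone and 304.5, 328 and 304.9 with 20E (log2 fold change 0.56, standard error 0.09, limma adjusted p = 0.0142). midway (mdy), the acyltransferase that makes triglyceride, was at 123, 129 and 135 without hormone and 197, 233 and 170.0 with 20E (log2 fold change 0.62, standard error 0.12, limma adjusted p = 0.0312). So a lipase and a triglyceride-making enzyme were both higher. Lsd-1, a lipid droplet protein, was at 367, 333 and 545 without hormone and 569, 719 and 654 with 20E, just short of the rule (limma adjusted p = 0.101). CG5171 and mdy lost their calls when array 2 without hormone or array 2 with 20E was left out (limma adjusted p from 0.125 to 0.151, and from 0.00907 to 0.151 over all alternatives), and also with a floor of 50 (CG5171).

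Of 20 genes for pteridines, purines and eye pigments 2 rose. Punch (Pu), GTP cyclohydrolase, the entry enzyme for pteridines and for the cofactor of catecholamine synthesis, was at 135, 104 and 108 without hormone and 239, 459.5 and 360.4 with 20E (log2 fold change 1.57, standard error 0.25, limma adjusted p = 0.0111). raspberry (ras), IMP dehydrogenase, which supplies the guanine nucleotides, was at 90.4, 107 and 103 without hormone and 186, 315 and 154 with 20E (log2 fold change 1.06, standard error 0.24, limma adjusted p = 0.0591). Array 2 with 20E was the highest in both, and that array also carried the highest values of Gart at 386, 399.5 and 395 without hormone and 455, 761 and 487 with 20E and Paics, which were not called (0.49 and 0.24). ras lost its call when array 1, 2 or 3 without hormone or array 2 with 20E was left out (limma adjusted p from 0.128 to 0.180, and from 0.0167 to 0.180 over all alternatives), and also with a fit of the 6 arrays alone and a floor of 50.

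Sphingolipid genes, listed after the values were seen, held 3 of 13 called higher, against 1.76% of all probe sets, with a median of -0.02. Nothing is read from this share either. Kdsr, the reductase of the second step of sphingolipid synthesis, was at 94.7, 93.0 and 101 without hormone and 159, 177 and 166 with 20E (log2 fold change 0.80, standard error 0.09, limma adjusted p = 0.00182). Ceramide kinase (Cerk) was at 120.4, 131 and 111 without hormone and 192, 202 and 178 with 20E (log2 fold change 0.66, standard error 0.10, limma adjusted p = 0.00776). Sply, the lyase that degrades the phosphorylated bases, rose by 0.80. Wunen (wun) and CG11425, 2 of 8 lipid phosphate phosphatases, rose by 0.61 and 0.62. Sply and CG11425 lost their calls when array 2 or 3 without hormone or array 2 with 20E was left out (limma adjusted p from 0.111 to 0.206, and from 0.0132 to 0.206 over all alternatives), and also with a fit of the 6 arrays alone and a floor of 50. wun lost its call when array 1, 2 or 3 without hormone or array 2 or 3 with 20E was left out (limma adjusted p from 0.118 to 0.199, and from 0.0173 to 0.199 over all alternatives), and also with a fit of the 6 arrays alone and a floor of 50. Glutamine and proline enzymes chosen in the same way were Gs1 (0.89), a glutamine synthetase, P5cr-2 (0.70) and 1 of 2 probe sets of the proline oxidase gene slgA (0.44). Gs1 lost its call when array 2 without hormone or array 2 with 20E was left out (limma adjusted p from 0.188 to 0.218, and from 0.0327 to 0.218 over all alternatives), and also with a fit of the 6 arrays alone and a floor of 50. P5cr-2 lost its call when array 2 with 20E was left out (limma adjusted p = 0.125, and from 0.00400 to 0.125 over all alternatives). slgA lost its call when array 1, 2 or 3 without hormone or array 2 or 3 with 20E was left out (limma adjusted p from 0.125 to 0.333, and from 0.0666 to 0.333 over all alternatives), and also with a floor of 50 and the log2 of the intensity plus 16. Sugarless (sgl), the UDP-glucose dehydrogenase needed for glycosaminoglycans, was at 132, 128 and 135 without hormone and 235, 288 and 259 with 20E (log2 fold change 0.98, standard error 0.11, limma adjusted p = 0.00170). Naprt, an enzyme of NAD salvage, was at 52.3, 45.1 and 50.5 without hormone and 108, 159 and 112 with 20E (log2 fold change 1.34, standard error 0.21, limma adjusted p = 0.00954). The last 2 kept their calls without any array.

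The detoxification families went in both directions. Of 14 glutathione transferases of the E class 3 rose and none fell. Of 11 of the D class none rose and 3 fell, and the list medians were 0.09 and -0.34. Over all probe sets 1.76% were called higher and 0.394% lower, and these counts were not tested against those shares. GstE3 was at 678, 629.8 and 588 without hormone and 2643, 2252 and 2095 with 20E (log2 fold change 1.88, standard error 0.12, limma adjusted p = 3.63e-05), a bright gene with a change of 3.68-fold. GstE5 was at 73.4, 79.4 and 74.7 without hormone and 159, 144 and 147 with 20E (log2 fold change 0.98, standard error 0.10, limma adjusted p = 0.000766). GstE7 was at 678, 683 and 814 without hormone and 1392, 1096 and 1193 with 20E (log2 fold change 0.76, standard error 0.12, limma adjusted p = 0.0111). All 3 kept their calls under each omission. GstD2 was at 2308, 2097 and 1529.7 without hormone and 1137, 959 and 736 with 20E (log2 fold change -1.07, standard error 0.17, limma adjusted p = 0.0111). GstD9 was at 397, 357 and 368 without hormone and 272, 278 and 261 with 20E (log2 fold change -0.46, standard error 0.07, limma adjusted p = 0.00584). GstD1, the brightest of the family, was at 8052, 7916 and 6550.5 without hormone and 5473, 5781 and 5649.6 with 20E (log2 fold change -0.41, standard error 0.10, limma adjusted p = 0.0900). All 3 were lower on every treated array. GstD1 lost its call when array 1 or 2 without hormone or array 1, 2 or 3 with 20E was left out (limma adjusted p from 0.153 to 0.313, and from 0.0305 to 0.313 over all alternatives), and also with a fit of the 6 arrays alone, a floor of 50 and quantile normalization. These genes lie in clusters of similar sequence, and whether their probe sets separate the copies was not tested.

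Of 80 cytochrome P450 genes 5 rose and 1 fell, against 1.76% and 0.394% of all probe sets. Their median was -0.06, and 24 of the 80 values were positive. Besides Cyp18a1, Cyp6d5 was at 241, 268 and 275 without hormone and 502, 532 and 364 with 20E (log2 fold change 0.82, standard error 0.14, limma adjusted p = 0.0142) and kept its call under each omission of an array. Cyp4p1 rose by 0.86, Cyp6d2 by 0.71 and Cyp12c1 by 0.48 on the log2 scale. Cyp6a23 was lower, at 217, 286 and 325 without hormone and 202, 134 and 131 with 20E (log2 fold change -0.84, standard error 0.20, limma adjusted p = 0.0710). Cyp4p1 lost its call when array 2 with 20E was left out (limma adjusted p = 0.101, and from 0.00434 to 0.101 over all alternatives). Cyp6d2 lost its call when array 1, 2 or 3 without hormone or array 1, 2 or 3 with 20E was left out (limma adjusted p from 0.132 to 0.325, and from 0.0294 to 0.325 over all alternatives), and also with a floor of 50. Cyp12c1 lost its call when array 1 or 2 without hormone or array 2 with 20E was left out (limma adjusted p from 0.101 to 0.165, and from 0.0230 to 0.165 over all alternatives), and also with a fit of the 6 arrays alone. Cyp6a23 lost its call when array 2 or 3 without hormone or array 2 or 3 with 20E was left out (limma adjusted p from 0.204 to 0.262, and from 0.0284 to 0.262 over all alternatives), and also with a fit of the 6 arrays alone and a floor of 50.

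Several genes for cell shape were raised. Of 17 measured genes for actin and myosin in epithelial shape change 5 rose and none fell, against 1.76% and 0.394% of all probe sets. Of the log2 fold changes 15 were positive, and the median was 0.41. Members that are not reported here were left out of this list after values were seen, so its counts and median are a description only. Cortactin, a regulator of branched actin, was at 120.05, 112 and 107 without hormone and 183, 251 and 198 with 20E (log2 fold change 0.89, standard error 0.14, limma adjusted p = 0.00954), the only one of the 5 to keep its call under each omission. zipper (zip), the heavy chain of nonmuscle myosin II that acts in disc and leg elongation, was at 503, 411 and 373 without hormone and 639, 799 and 597 with 20E (log2 fold change 0.66, standard error 0.14, limma adjusted p = 0.0455). The light chain gene Mlc-c was at 167, 167 and 159 without hormone and 222, 314 and 246 with 20E (log2 fold change 0.65, standard error 0.13, limma adjusted p = 0.0302). The septin gene pnut and the channel-like gene big brain (bib) rose by 0.62 and 1.00. zip lost its call when array 2 or 3 without hormone or array 2 with 20E was left out (limma adjusted p from 0.148 to 0.188, and from 0.0303 to 0.188 over all alternatives), and also with a fit of the 6 arrays alone and a floor of 50. Mlc-c lost its call when array 2 without hormone or array 2 with 20E was left out (limma adjusted p from 0.101 to 0.122, and from 0.0172 to 0.122 over all alternatives). pnut lost its call when array 2 or 3 without hormone or array 2 or 3 with 20E was left out (limma adjusted p from 0.117 to 0.196, and from 0.0248 to 0.196 over all alternatives), and also with a floor of 50. bib lost its call when array 2 or 3 without hormone or array 1 or 2 with 20E was left out (limma adjusted p from 0.113 to 0.237, and from 0.0175 to 0.423 over all alternatives), and also with a floor of 50. Without array 2 of either group 1 of the 17 was called, and without array 3 of the controls 2 were.

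Among 19 genes for integrins, talin and adhesion, the talin gene rhea alone was called, at 380.1, 258 and 241 without hormone and 531, 644 and 681 with 20E (log2 fold change 1.10, standard error 0.25, limma adjusted p = 0.0555). The beta integrin gene mys was at 961, 1131 and 765 without hormone and 666, 874 and 634 with 20E (-0.39, not called). cindr, an adaptor of cell junctions and endocytosis picked after its values were seen, was at 254, 266 and 197 without hormone and 419.9, 484 and 368 with 20E (log2 fold change 0.83, standard error 0.14, limma adjusted p = 0.0138). Also picked in that way were dystroglycan (Dg, 0.75), the netrin receptor gene frazzled (fra, 0.58), numb (0.57) and Innexin 2 (Inx2, 0.46). rhea and fra lost their calls when array 2 or 3 without hormone or array 2 or 3 with 20E was left out (limma adjusted p from 0.117 to 0.286, and from 0.0327 to 0.286 over all alternatives), and also with a floor of 50 and a fit of the 6 arrays alone (fra). Dg and numb lost their calls when array 2 or 3 without hormone or array 2 with 20E was left out (limma adjusted p from 0.104 to 0.189, and from 0.0134 to 0.189 over all alternatives), and also with a floor of 50 (numb). Inx2 lost its call when array 2 or 3 without hormone or array 1 or 2 with 20E was left out (limma adjusted p from 0.130 to 0.289, and from 0.0205 to 0.289 over all alternatives), and also with a fit of the 6 arrays alone and a floor of 50. Of 17 matrix genes 1 was called, the metalloproteinase inhibitor Timp, lower at 163, 178 and 193 without hormone and 86.8, 96.8 and 135 with 20E (log2 fold change -0.77, standard error 0.14, limma adjusted p = 0.0223). Of the proteases, Mmp1 was at 443, 439 and 368 without hormone and 413, 667 and 448 with 20E (0.26), and its groups overlapped. The tolloid-like protease gene tok was at 58.1, 51.0 and 54.4 without hormone and 75.2, 151 and 96.2 with 20E and not called (0.92, limma adjusted p = 0.104). Timp lost its call when array 2 without hormone or array 2 with 20E was left out (limma adjusted p from 0.105 to 0.112, and from 0.00366 to 0.112 over all alternatives).

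Tanning and chitin genes showed few calls. Of 18 tanning and catecholamine enzymes yellow-b fell and yellow-e rose. yellow-b was at 540.2, 651 and 552 without hormone and 394, 393 and 342 with 20E (log2 fold change -0.63, standard error 0.10, limma adjusted p = 0.0111). yellow-e was at 241, 191 and 196 without hormone and 296, 282 and 273 with 20E (log2 fold change 0.45, standard error 0.11, limma adjusted p = 0.0726). Dopamine and beta-alanine genes, which tan the puparium, were not called. Dhpr, a pteridine reductase, was at 1077, 958 and 626 without hormone and 1376, 1838 and 1179.8 with 20E (0.74). black (b), which makes beta-alanine, was at 871, 918 and 590.5 without hormone and 994, 2295 and 1325 with 20E (0.89). Both were higher on every treated array, with wide scatter. The dopamine synthesis genes ple and Ddc had log2 fold changes of -0.05 and 0.08. Over the 18 tanning and catecholamine enzymes the median was -0.05, and 7 values were positive. Of 18 chitin genes the chitinase gene Cht10 rose, by 0.61. yellow-e lost its call when array 2 or 3 without hormone or array 1, 2 or 3 with 20E was left out (limma adjusted p from 0.136 to 0.294, and from 0.0218 to 0.294 over all alternatives), and also with a fit of the 6 arrays alone, a floor of 50 and quantile normalization. Cht10 lost its call when array 2 or 3 without hormone or array 2 or 3 with 20E was left out (limma adjusted p from 0.136 to 0.296, and from 0.0485 to 0.296 over all alternatives), and also with a fit of the 6 arrays alone and a floor of 50.

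In the 2 immune lists the only call was an increase, although most antimicrobial peptide genes leaned downward without a call. Of 13 antimicrobial peptide genes none was called with limma or SAM, yet 9 had an unadjusted p under 0.05 downward and 1 upward, and the median log2 fold change of -0.64 was the lowest of all lists. In 5 of the 13 all 20E arrays lay below all controls, against 10.1% of all probe sets. AttD was at 2597, 3621 and 2644 without hormone and 813, 2389 and 1004 with 20E (log2 fold change -1.22, limma adjusted p = 0.115). AttB was at 7342, 8093 and 7129.8 without hormone and 3430.4, 5728 and 4283 with 20E (-0.78, limma adjusted p = 0.115). On array 2 with 20E each of them was far above the other two treated arrays, and without that array 3 of the 13 were called. The exception was Drosomycin-like 5 (Drsl5), at 50, 52.2 and 44.2 without hormone and 56.2, 396 and 139 with 20E (1.58, 0.185). The study names CecC, AttA, Dro, Drs and Def as lowered by 20E, and none of them was called here. Their log2 fold changes were -0.49, -0.77, -1.26, -0.62 and -0.88 (limma adjusted p from 0.186 to 0.358). Of 19 Toll and Imd genes 1 was called, pirk, which dampens Imd signalling, at 147, 150.02 and 137 without hormone and 221, 193 and 189 with 20E (log2 fold change 0.47, standard error 0.08, limma adjusted p = 0.0146). Relish, the NF-kappaB factor of the Imd branch, was at 845, 1023 and 904 without hormone and 499, 893 and 635 with 20E, overlapping and not called (-0.49, limma adjusted p = 0.295).

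Heat shock genes gave 1 call in 18. None of 7 small heat shock genes was called with limma, 2 had an unadjusted p under 0.05 upward, and SAM on log2 values called 1. Hsp27 was at 1863, 1373 and 1541 without hormone and 2135, 2150.1 and 2208 with 20E (0.45, limma adjusted p = 0.229). Of 11 Hsp70 and Hsp90 class genes Hsp110 rose, by 0.52. Hsp110 lost its call when array 2 or 3 without hormone or array 2 or 3 with 20E was left out (limma adjusted p from 0.211 to 0.358, and from 0.0672 to 0.358 over all alternatives), and also with a floor of 50.

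Other signalling and growth lists held a single call or none. In JAK/STAT signalling Stat92E rose (log2 fold change 0.45, standard error 0.11, limma adjusted p = 0.0752), and upd3 and dome had values of -0.14 and -0.21. Stat92E lost its call when array 2 or 3 without hormone or array 2 or 3 with 20E was left out (limma adjusted p from 0.155 to 0.304, and from 0.0540 to 0.304 over all alternatives), and also with a floor of 50. None of 16 insulin and TOR genes was called with limma, 2 had an unadjusted p under 0.05, both upward, and SAM on log2 values called 1. InR was at 0.10, foxo at -0.07 and ImpL2, an insulin-binding protein, at 0.16. None of 15 AP-1 and JNK genes (3 up and 2 down at an unadjusted p under 0.05), 12 Notch targets (1 and 0) and 22 replication and mitosis genes (2 and 0) was called with limma or SAM. Among 42 proteasome subunits none was called by either, but 33 values were positive, with a median of 0.11, and of 67 respiratory chain subunits, again without a call, 52 were positive, with a median of 0.10. Of these 67, 21 had all 20E arrays above all controls, against 10.6% of all probe sets. The ribosomal protein lists held 1 limma call each, RpL24-like of 38 and mRpL33 of 64. SAM on log2 values did not call RpL24-like, and it called RpS6 lower (log2 fold change -0.39, limma adjusted p = 0.120). RpL24-like lost its call when array 1, 2 or 3 without hormone or array 2 or 3 with 20E was left out (limma adjusted p from 0.116 to 0.262, and from 0.0148 to 0.262 over all alternatives), and also with a fit of the 6 arrays alone, a floor of 50, the log2 of the intensity plus 16 and quantile normalization. mRpL33 lost its call when array 2 without hormone or array 2 with 20E was left out (limma adjusted p from 0.126 to 0.149, and from 0.0194 to 0.149 over all alternatives), and also with the log2 of the intensity plus 16. Of 9 coactivators and corepressors of the receptor none was called on its brightest probe set by either tool, 1 having an unadjusted p under 0.05. A second probe set of the coactivator gene taiman (tai) was called, at 61.6, 60.1 and 62.2 without hormone and 82.0, 77.5 and 80.0 with 20E (log2 fold change 0.38, standard error 0.07, limma adjusted p = 0.0223). tai lost its call when array 2 without hormone or array 1 with 20E was left out (limma adjusted p from 0.0662 to 0.115, and from 0.0167 to 0.115 over all alternatives), and also with the log2 of the intensity plus 16 and median centring.

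**Figure D3:**
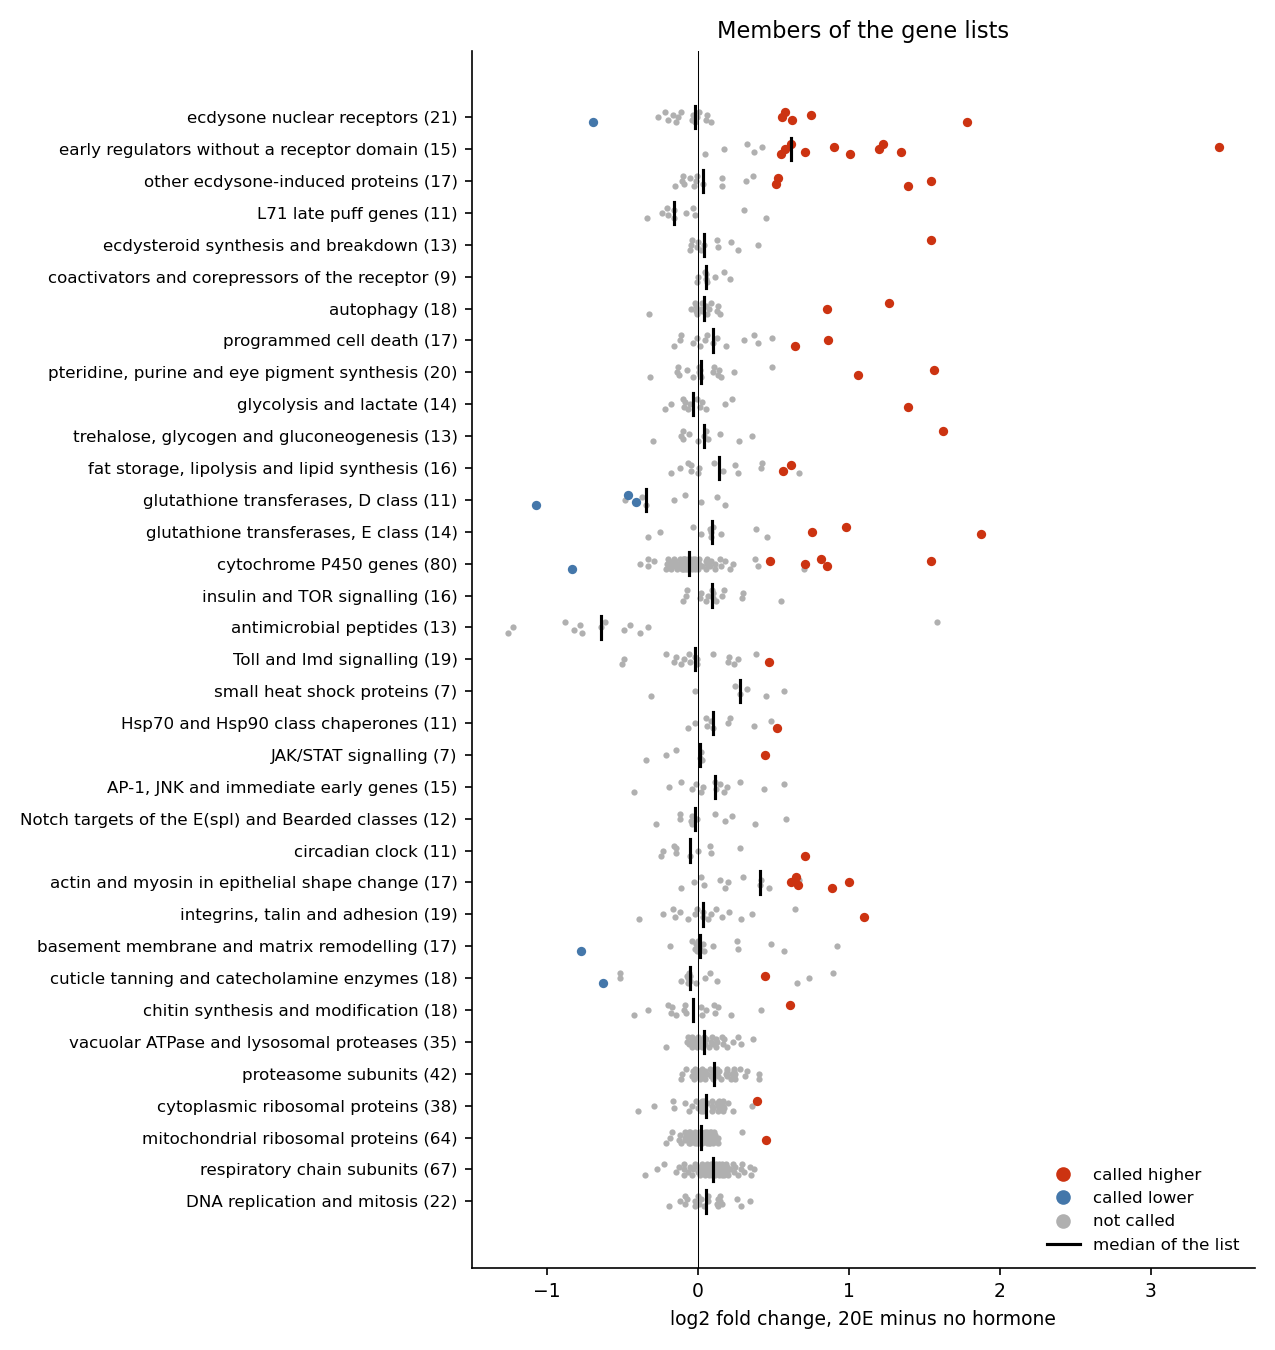
Log2 fold change between 20E and no hormone of each measured member of 35 gene lists (number of members in parentheses), with called members in red or blue, uncalled ones in grey and a black bar at each list's median. The medians stand near 0 apart from the early regulators at 0.62, the cell shape genes at 0.41, the small heat shock genes at 0.28, and, below 0, the D class glutathione transferases at -0.34 and the antimicrobial peptides at -0.64.

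Several strongly raised genes belong to none of these lists. CG14664 was at 159.7, 102 and 114 without hormone and 313, 971 and 464 with 20E (log2 fold change 2.09, standard error 0.39, limma adjusted p = 0.0223), with array 2 with 20E far above the next. CG4367 was at 85.7, 104 and 84.1 without hormone and 329.9, 244 and 339 with 20E (log2 fold change 1.73, standard error 0.21, limma adjusted p = 0.00238). CG10444, a dim probe set, was at 22.4, 18.0 and 12.1 without hormone and 43.7, 82.2 and 54.6 with 20E (log2 fold change 1.78, standard error 0.34, limma adjusted p = 0.0272). These 3 differed in scatter, widest for CG14664 and narrowest for CG4367. CG2444 was at 1141, 614 and 432 without hormone and 1493, 3136 and 1868 with 20E (log2 fold change 1.62, standard error 0.35, limma adjusted p = 0.0446). CG5391 was at 1077, 459.6 and 445 without hormone and 1355, 2614 and 1359.5 with 20E (log2 fold change 1.48, standard error 0.37, limma adjusted p = 0.0835). In both, array 1 without hormone was far above the other controls and still below the lowest treated array. MESR3, found through Ras signalling, was at 109.5, 87.5 and 95.1 without hormone and 189, 321 and 259 with 20E (log2 fold change 1.37, standard error 0.22, limma adjusted p = 0.0111). CG8501 was at 240.1, 164 and 199 without hormone and 408, 609.5 and 435 with 20E (log2 fold change 1.26, standard error 0.22, limma adjusted p = 0.0146). CG11737 was at 284, 217 and 237 without hormone and 545, 694 and 532 with 20E (log2 fold change 1.26, standard error 0.14, limma adjusted p = 0.00169). These 3 did not overlap and kept their calls under each omission. rdgBbeta, a phosphatidylinositol transfer protein, was at 16.4, 13.9 and 14.0 without hormone and 28.7, 47.2 and 35.3 with 20E (log2 fold change 1.299, standard error 0.28, limma adjusted p = 0.0444). CG14664 lost its call when array 2 without hormone was left out (limma adjusted p = 0.124, and from 0.0114 to 0.124 over all alternatives). CG10444 lost its call when array 2 without hormone or array 2 with 20E was left out (limma adjusted p from 0.115 to 0.125, and from 0.00580 to 0.525 over all alternatives), and also with a floor of 50. CG2444 lost its call when array 2 or 3 without hormone or array 2 with 20E was left out (limma adjusted p from 0.139 to 0.188, and from 0.0166 to 0.188 over all alternatives), and also with a fit of the 6 arrays alone and a floor of 50. CG5391 and rdgBbeta lost their calls when array 2 or 3 without hormone or array 2 or 3 with 20E was left out. For CG5391 the limma adjusted p was then from 0.127 to 0.331, and from 0.0248 to 0.331 over all alternatives. For rdgBbeta it was from 0.112 to 0.186, and 0.0175 or more over all alternatives. Both calls also ended with a floor of 50, which removed the difference of rdgBbeta, and that of CG5391 with a fit of the 6 arrays alone.

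Smaller increases of well-known genes included the receptor tyrosine phosphatase Ptp52F, at 237, 226 and 251 without hormone and 448, 634 and 403 with 20E (log2 fold change 1.03, standard error 0.18, limma adjusted p = 0.0164). Lamina ancestor (lama) was at 91.7, 97.7 and 77.8 without hormone and 188, 229 and 151 with 20E (log2 fold change 1.08, standard error 0.14, limma adjusted p = 0.00399). CG11529 was at 393, 358 and 392 without hormone and 694, 813 and 821 with 20E (log2 fold change 1.02, standard error 0.13, limma adjusted p = 0.00226). These 3 genes were raised about 2-fold and kept their calls under each omission. CG16995 was at 74.5, 78.7 and 73.4 without hormone and 165, 170.0 and 150.2 with 20E (log2 fold change 1.10, standard error 0.08, limma adjusted p = 3.63e-05), the narrowest of these groups. The E3 adaptor gene slmb was at 95.8, 68.5 and 90.7 without hormone and 153, 209 and 193 with 20E (log2 fold change 1.13, standard error 0.20, limma adjusted p = 0.0198). The chromosomal kinase gene JIL-1 was at 23.5, 20.3 and 18.1 without hormone and 38.4, 56.6 and 43.6 with 20E (log2 fold change 1.15, standard error 0.24, limma adjusted p = 0.0363). slmb lost its call when array 2 without hormone was left out (limma adjusted p = 0.115, and from 0.00981 to 0.115 over all alternatives). JIL-1 lost its call when array 2 or 3 without hormone or array 2 with 20E was left out (limma adjusted p from 0.120 to 0.156, and from 0.0180 to 0.990 over all alternatives), and also with a floor of 50. Picked after their values were seen were CG11034, alt, raw and Tnpo, each of which kept its call under every omission of an array. CG11034 was at 121, 121 and 122 without hormone and 248, 314 and 248 with 20E (log2 fold change 1.15, standard error 0.13, limma adjusted p = 0.00170). Aluminum tubes (alt) was at 192, 151 and 163 without hormone and 335, 448 and 345 with 20E (log2 fold change 1.15, standard error 0.14, limma adjusted p = 0.00226). raw, an antagonist of JNK signalling, was at 314, 286 and 273 without hormone and 417, 465 and 407 with 20E (log2 fold change 0.56, standard error 0.10, limma adjusted p = 0.0158). Transportin (Tnpo), a nuclear import factor, was at 100.3, 90.1 and 94.6 without hormone and 145, 165 and 159 with 20E (log2 fold change 0.72, standard error 0.08, limma adjusted p = 0.00170). Keap1, the sensor of oxidative stress, and sulfiredoxin (Srx) rose by 0.53 and 0.89. Keap1 lost its call when array 1, 2 or 3 without hormone or array 2 or 3 with 20E was left out (limma adjusted p from 0.134 to 0.276, and from 0.0395 to 0.276 over all alternatives), and also with a fit of the 6 arrays alone and a floor of 50. Srx lost its call when array 2 or 3 without hormone or array 2 or 3 with 20E was left out (limma adjusted p from 0.107 to 0.235, and from 0.0371 to 0.235 over all alternatives), and also with a fit of the 6 arrays alone and a floor of 50.

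The lowered genes were fewer and of mixed function. CG17738, the brightest of them but for GstD1, was at 4282, 5554 and 4152 without hormone and 2510.3, 2282 and 2388 with 20E (log2 fold change -0.95, standard error 0.13, limma adjusted p = 0.00479). astray (aay), a phosphoserine phosphatase of serine synthesis, was at 608, 666 and 445 without hormone and 185, 339 and 238 with 20E (log2 fold change -1.20, standard error 0.20, limma adjusted p = 0.0142). Both were lower without overlap and kept their calls under each omission, but SAM on log2 values called only CG17738. CG9701 was at 405, 651 and 379 without hormone and 129, 218 and 179.9 with 20E (log2 fold change -1.44, standard error 0.28, limma adjusted p = 0.0297). CG14567 was at 951, 1481 and 1266 without hormone and 396, 730.5 and 505 with 20E (log2 fold change -1.20, standard error 0.22, limma adjusted p = 0.0228). hui was at 1458, 1779 and 1241 without hormone and 683, 869.6 and 757 with 20E (log2 fold change -0.95, standard error 0.17, limma adjusted p = 0.0215). In these 3 every treated array lay below every control. Tep1, a secreted thioester protein of the immune response, was at 241, 233 and 159 without hormone and 78.2, 121 and 70.97 with 20E (log2 fold change -1.25, standard error 0.25, limma adjusted p = 0.0323). The cuticle protein gene Cpr67B was at 1369.8, 2440.2 and 1793 without hormone and 920.0, 1076 and 948 with 20E (log2 fold change -0.89, standard error 0.18, limma adjusted p = 0.0384). CG9701, CG14567 and hui lost their calls when array 2 without hormone was left out (limma adjusted p from 0.115 to 0.150, and from 0.00403 to 0.150 over all alternatives), and also with a floor of 50 (CG9701). Tep1 and Cpr67B lost their calls when array 2 without hormone or array 3 with 20E was left out (limma adjusted p from 0.114 to 0.164, and from 0.00239 to 0.164 over all alternatives), and also with a floor of 50 and a fit of the 6 arrays alone (Cpr67B).

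Ect3, a beta-galactosidase gene, was at 196, 175 and 173 without hormone and 102, 112 and 97.2 with 20E (log2 fold change -0.81, standard error 0.10, limma adjusted p = 0.00182), a narrow pair of groups that no omission brought together. The following were picked after the values were seen. Malic enzyme (Men), a source of NADPH, was at 740.0, 666 and 639 without hormone and 389, 443 and 404 with 20E (log2 fold change -0.72, standard error 0.10, limma adjusted p = 0.00507). The zinc transporter gene Zip89B was at 208, 291 and 259 without hormone and 144, 166 and 158 with 20E (log2 fold change -0.69, standard error 0.11, limma adjusted p = 0.0125). CG10433 was at 201, 203 and 162 without hormone and 122, 115 and 120.3 with 20E (log2 fold change -0.66, standard error 0.10, limma adjusted p = 0.0104). CG2065 was at 418, 404 and 324 without hormone and 247, 248 and 233 with 20E (log2 fold change -0.65, standard error 0.09, limma adjusted p = 0.00584). These 4 kept their calls without any single array, but SAM on log2 values did not call Zip89B. Transferrin 3 (Tsf3), transglutaminase (Tg), the EGF receptor antagonist argos (aos) and Tis11, which destabilizes messenger RNAs, also fell (-0.65, -0.38, -0.41 and -0.39). Tsf3 lost its call when array 1, 2 or 3 without hormone or array 1, 2 or 3 with 20E was left out (limma adjusted p from 0.117 to 0.290, and from 0.0173 to 0.290 over all alternatives), and also with a floor of 50. Tg lost its call when array 2 or 3 without hormone or array 2 with 20E was left out (limma adjusted p from 0.0760 to 0.120, and from 0.0135 to 0.120 over all alternatives), and also with the log2 of the intensity plus 16. aos lost its call when array 1 or 3 without hormone or array 2 or 3 with 20E was left out (limma adjusted p from 0.139 to 0.261, and from 0.0125 to 1.00 over all alternatives), and also with a fit of the 6 arrays alone, a floor of 50 and the log2 of the intensity plus 16. Tis11 lost its call when array 2 or 3 without hormone or array 1 or 3 with 20E was left out (limma adjusted p from 0.112 to 0.269, and from 0.0221 to 0.269 over all alternatives), and also with a fit of the 6 arrays alone, a floor of 50 and the log2 of the intensity plus 16.

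5 of the lowered genes followed 1 pattern over all 12 arrays, and whether further lowered genes did so was not tested. CG10485 was at 338, 376 and 284 without hormone and 77.3, 77.9 and 81.0 with 20E, with hardly any scatter under 20E (log2 fold change -2.07, standard error 0.39, limma adjusted p = 0.0228). On the 3 arrays with 20E plus cycloheximide it was at 334, 258 and 454, and on those with cycloheximide alone at 72.4, 278 and 91.2. CR11386 (-2.05), CG3408 (-1.97), asRNA:CR11538 (-1.46) and CG18334 (-1.37) were likewise high on each array without hormone, on each with both agents and on array 2 with cycloheximide alone, and low on the remaining 5. CR11386, for instance, was at 864, 985 and 643 without hormone and 198, 207 and 189.5 with 20E, at 814, 698 and 998 with both agents, and at 132, 818 and 239 with cycloheximide alone. Within the cycloheximide group 1 array stood with the high set and 2 with the low set, against their common label. CG10485 lost its call when array 2 without hormone was left out (limma adjusted p = 0.124, and from 0.00109 to 0.124 over all alternatives). CR11386 and asRNA:CR11538 lost their calls when array 1, 2 or 3 without hormone or array 1, 2 or 3 with 20E was left out (limma adjusted p from 0.112 to 0.335, and from 0.00174 to 0.335 over all alternatives), and also with a floor of 50. CG3408 and CG18334 lost their calls when array 2 without hormone or array 2 with 20E was left out (limma adjusted p from 0.101 to 0.151, and from 0.00141 to 0.159 over all alternatives), and also with a floor of 50 (CG3408).

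**Figure D4:**
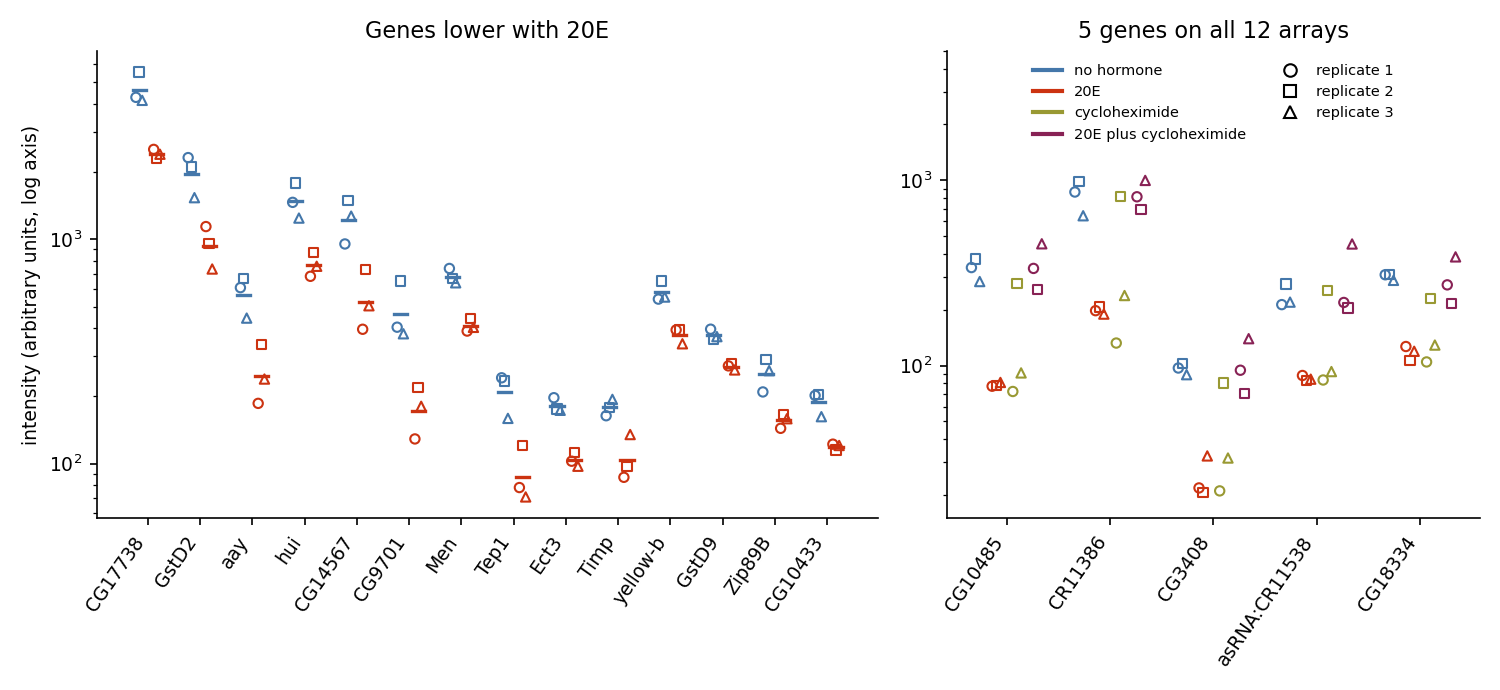
Left, intensity (log axis) of 14 genes lower with 20E on each of the 3 arrays without hormone (blue) and the 3 with 20E (red), with bars at the geometric means and no overlap in any gene. Right, 5 further lowered genes on all 12 arrays, where array 2 with cycloheximide alone (square) lies with the arrays without hormone and the other two (circle, triangle) with the 20E arrays.

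Whether the effect of 20E was the same when protein synthesis was blocked was tested as the difference of both effects, which share no array. Of the 246 probe sets called higher 61 were also called higher with 20E plus cycloheximide against cycloheximide, and of the 55 called lower 13 were also called lower. The difference itself was called for 11 of the 301, at a limma adjusted p under 0.10. The shares of all probe sets called with cycloheximide and for the difference are not given here. These counts are therefore a description, and the overlap was not tested. For Eip75B the mean intensity was 484 with cycloheximide and 1353 with both agents, against 483 and 719 without and with 20E alone. The log2 fold changes were 1.48 with the inhibitor and 0.58 without it, a difference of -0.90 (limma adjusted p = 0.0942). For Cyp18a1 they were 3.17 and 1.54, a difference of -1.62 (limma adjusted p = 0.0867), so both transcripts were induced more strongly with the inhibitor present. CG11529 went the other way, with 1.02 in its absence and -0.27 in its presence (difference 1.29, limma adjusted p = 0.0383). CG11529 had means of 627 with cycloheximide and 524 with both agents, against 381 and 776 without and with 20E alone. It was thus already higher with cycloheximide alone, and whether this hid an effect of 20E was not tested. These calls depended on single arrays, since leaving out 1 of the 12 ended that of Eip75B for 9 of them (0.0726 to 0.254), that of Cyp18a1 for 8 (0.0686 to 0.276) and that of CG11529 for 6 (0.0170 to 0.196). The other 8 were tai, Tnpo, CG10485, CG3408 and CG18334, and CG30344 (0.54), CycG (-0.63) and 1 of 2 probe sets of Ost48 (-0.55), which are named for this call with their log2 fold change under 20E alone. CG30344 and CycG lost their calls when array 2 without hormone or array 2 with 20E was left out (limma adjusted p from 0.125 to 0.186, and from 0.0163 to 0.186 over all alternatives), and also with a floor of 50 (CG30344). Ost48 lost its call when array 2 or 3 without hormone or array 2 or 3 with 20E was left out (limma adjusted p from 0.110 to 0.231, and from 0.0316 to 0.231 over all alternatives), and also with a floor of 50. The brighter probe set of Ost48 was not called. Among the named genes not called for 20E alone, Blimp-1 also differed. Its mean intensity was 163 with cycloheximide and 513 with both agents, against 172 and 217 without and with 20E alone. Its log2 fold changes were 1.64 with the inhibitor and 0.33 without it, a difference of -1.32 (limma adjusted p = 0.0239), a call that ended for 1 of the 12 omissions, that of array 2 without hormone (0.130). For the remaining genes named here no difference was called, which does not show that both effects were equal.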

How the data were processed

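Total RNA of the cultured organs was hybridised to Affymetrix GeneChip Drosophila Genome Arrays, with 1 array per culture. The authors normalized the raw data with dChip and deposited 1 linear intensity per probe set and array. The baseline array and the use of mismatch probes were not given in the sources used here. The number of arrays, 3 per group, limits the precision.

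Intensities under 10 (302 values on the 6 arrays) were set to 10 and log2 transformed. A limma 3.58.1 model (R 4.3.3) with an intensity trend was fitted to all 12 arrays in 4 groups, two-sided, with Benjamini-Hochberg adjustment over 13966 probe sets, and was first tested on simulated data. The test of the study's methods, SAM, was run as an alternative on the linear intensities over all 20 assignments of the arrays, and on log2 values after the data had been seen. Other alternatives changed the arrays in the fit, trend, floor, log transform, normalization, dim filter, threshold, fold limit, fold definition and replicate block, or left out each array.

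Platform annotation named 12442 probe sets, and a look-up in RefSeq changed none of these symbols. Spreadsheets of the study named 152 and 90 more. A further 327 had several genes and 955 none, leaving 11072 genes. No genome was used, so positions are not given, and the planned count of promoter motifs was not run.

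Members and 45 gene lists were chosen with earlier results of these data known, and 4 further lists (endosomal sorting, sphingolipids, corpse engulfment, lipid phosphate phosphatases) were added after values were seen. Genes were named if the study names them from these cultures, if they were among the 20 largest increases or 15 largest decreases called without overlap and with 1 gene name, or if they were key members or among the 6 smallest adjusted p of a list. Picked beyond that rule after their values were seen were emc, ImpL1, Atg6, svp, Edg91, Paics, Dcp-1, ImpE1, tll, Edg78E, Cyp6d2, sad, Atg9, spo and those so marked in the text. Members of the cell shape list that are not reported here were left out of its counts after values were seen.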

Additional observations from a re-analysis of the deposited data

Results flagged for a closer look

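In 11 called probe sets the effect of 20E differed between organs cultured without and with cycloheximide, by the limma test of the difference (effect without minus effect with the inhibitor, on the log2 scale, adjusted p under 0.10). In 3 of them the transcript rose more strongly with the inhibitor present. The difference was -1.62 for Cyp18a1 (adjusted p = 0.0867), -0.90 for Eip75B (0.0942) and -0.62 for tai (0.0842), and each rose in both settings.

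A further 5 fell with 20E alone and had higher means with 20E plus cycloheximide than with cycloheximide alone. The difference was -3.54 for CG10485 (0.0770), -3.35 for CG3408 (0.0867), -2.32 for CG18334 (0.0770), -1.13 for CycG (0.0770) and -1.07 for Ost48 (0.0867). Of these 5 the log2 change with the inhibitor was 0.51 for Ost48 (adjusted p = 0.0951), while that of CycG was 0.50 (0.111) and those of CG10485 (0.140), CG3408 (0.189) and CG18334 (0.147) were not called either. CG10485, CG3408 and CG18334 are 3 of the 5 genes that were high on array 2 with cycloheximide alone and low on the other two of that group. Mean intensities of CycG and Ost48 had a similar course. For CycG they were 220 after 20E and 244 (standard deviation 48.3) after the inhibitor alone. They were 339 in medium alone and 343 when both agents were given. For Ost48 the corresponding means were 97.4, 100 (19.9), 143 and 142. Whether array 2 of cycloheximide alone also set CycG and Ost48 apart was not tested.

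The last 3 rose with 20E alone and were not called with the inhibitor. The difference was 1.29 for CG11529 (0.0383), 0.90 for CG30344 (0.0942) and 0.68 for Tnpo (0.0908). None of these 11 calls was stable to the omission of arrays. Leaving out 1 of the 12 ended the call for 6 arrays in CG11529, 8 in Cyp18a1, 9 in Eip75B and tai, and 10 in each of the other genes, with adjusted p between 0.000182 and 0.311 over all 11 genes and omissions.

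Blimp-1 was not called for 20E alone (log2 fold change 0.33) but rose with the inhibitor present (1.64), and its difference was -1.32 (limma adjusted p = 0.0239). Leaving out array 2 without hormone ended this call (0.130), and over the 12 omissions its adjusted p lay between 0.00645 and 0.130.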

How the results depend on the processing

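Without the replicate block, 246 probe sets were called higher and 55 lower. A floor of 50 left 106 and 24, an adjusted p under 0.05 left 160 and 32, and SAM on linear intensities left 14 and 5, of which 14 and 3 were shared with limma. SAM on log2 values, added after seeing the data, gave 275 and 38. Dropping the fold limit gave 83 lower. Omitting 1 array at a time gave 88 to 304 higher and 17 to 68 lower, the lowest counts coming without array 2 of the control group. The other alternatives without the block gave 195 to 292 higher and 47 to 76 lower. Whether the replicate numbers pair the arrays was not settled. Between the groups without hormone and with 20E, the deviations of same-numbered arrays from their group means correlated at -0.03, 0.11 and 0.36. Those of differently numbered arrays correlated at -0.26 to 0.17. With the number as a block 351 were higher and 95 lower, 244 and 54 of them shared with the calls without it, and among genes named here Hsp110 lost its call (limma adjusted p = 0.104). The 11 differences between both effects of 20E became 23 with the block, 4 with a floor of 50, and 0 to 70 when 1 of the 12 arrays was omitted, with 70 without array 2 of 20E plus cycloheximide and 22 without array 2 of cycloheximide alone. No called gene named here changed direction in the alternatives run. Of the 301 called probe sets 79 kept their call in every limma alternative and 257 were called by SAM on log2 values. Genes named here as higher that SAM did not call on log2 values were ImpE2, prtp, fra and RpL24-like. Among those named as lower they were aay, CG14567, Cpr67B, Cyp6a23, GstD1, Timp, Tg, aos, Tis11 and Zip89B. Of the 246 higher probe sets 40 had a control mean under 50, near the dim end of the array. On the single control arrays 15.7% to 16.5% of all probe sets were under 50. The causes of these changes were not tested.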
